A study of Mus musculus and Homo sapiens with 22 samples.

Results

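The binding sites of endogenous PROX1 in mouse liver were read from a single deposited list of peaks. The list held 50159 peaks, out of 105059 in the 3 peak lists of the series, and every peak of it was taken. It came from CUT&RUN, a method that cuts DNA with a nuclease tethered to an antibody and sequences what is released, so that fragments pile up where the antibody bound. Nuclei were isolated from untreated livers of wild-type C57BL/6J mice, aged 2 to 3 months, and labelled as hepatocyte nuclei. A rabbit antibody against Prox1 (Reliatech) was used in 5 samples, and rabbit IgG served as the control in 5 others. No allele or transgene was introduced, so the list reports the protein at its own level. The series also holds cultured fibroblasts and Hep3B cells with overexpressed PROX1, which are not described here.

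The list pools the 5 antibody samples. It therefore carries no spread between mice and no count of reads per sample, and every value below describes the list as a whole. The study describes the sites as called relative to IgG, while the command given for the peak caller names no control library. The step at which the IgG samples entered is therefore unclear, and the IgG signal at these sites was not analysed here. The material was made from liver nuclei without sorting, and no RNA was measured in these samples, so the hepatocyte label could not be checked against expression. The ranges given with shares are 95% Wilson intervals, which cover counting error only.

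PROX1 is a homeodomain transcription factor that is needed for liver growth during development and stays expressed in adult hepatocytes. It is known as a corepressor of nuclear receptors, among them HNF4A and NR5A2, and recruits histone deacetylases. Outside the liver it specifies lymphatic endothelial cells. Hepatocytes secrete plasma proteins, make bile acids and urea, and balance the supply of glucose and lipid, and their genes are driven by HNF4A, the FOXA and C/EBP factors, ONECUT factors and nuclear receptors.

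Each peak has a summit, the base with the highest signal, and a −log10 p assigned there by the authors' caller, which was used to rank the list. To show the DNA under the strongest peaks, the 81 bp around the summit are given for 6 of the 15 highest-ranked peaks, taken from the mouse assembly GRCm38 (plus strand). Capitals mark letters that match a factor motif on either strand: AGGTCA (nuclear receptor element), CAAAGTCCA (HNF4A type), ATCGAT or ATCAAT (ONECUT type), TGTTTAC or TGTTTGC (FOXA type), TTGCNNAA (C/EBP type), TTGGCA (NFI type) and AAGNCGNCT (PROX1 core).
Trpm8 intron (chr1:88288280-88288360): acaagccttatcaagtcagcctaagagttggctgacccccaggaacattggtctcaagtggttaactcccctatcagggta
Nr0b2 promoter (chr4:133553000-133553080): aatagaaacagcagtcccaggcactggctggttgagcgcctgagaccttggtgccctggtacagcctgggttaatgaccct
Ugt1a intron (chr1:88213775-88213855): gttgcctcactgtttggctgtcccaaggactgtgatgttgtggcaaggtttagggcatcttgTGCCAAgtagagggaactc
Nr2f2 upstream (chr7:70515589-70515669): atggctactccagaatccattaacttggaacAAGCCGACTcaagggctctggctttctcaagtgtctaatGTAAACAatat
Saa1 upstream (chr7:46745886-46745966): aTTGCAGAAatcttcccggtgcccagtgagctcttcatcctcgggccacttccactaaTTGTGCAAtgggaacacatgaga
Ndufb3 downstream (chr1:58610309-58610389): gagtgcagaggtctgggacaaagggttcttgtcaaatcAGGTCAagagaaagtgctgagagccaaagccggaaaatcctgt

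The Trpm8 window, second in rank, and the Nr0b2 window, which holds rank 5, contained none of these motifs in the 81 bp shown. The windows of the peaks in Sfi1 (rank 3) and upstream of Ces1e (rank 12), which are not shown, contained none either. Within 50 bp of the summit, the width used for the motif counts below, the Nr0b2 peak held ATCAAT and the Sfi1 peak TGTTTAC. The PROX1 core lay with its centre 5.0 bp from the summit in the peak upstream of Nr2f2, and an AGGTCA element lay 0.5 bp from the summit of the peak near Ndufb3. A further set shows peaks that the text below turns on: promoters of genes of liver function, a pair of near-identical promoters of major urinary protein genes, and strong peaks with an HNF4A-type, an ATCGAT or a PROX1 core match. The last of these were chosen after their values were seen.
Fgb upstream (chr3:83050820-83050900): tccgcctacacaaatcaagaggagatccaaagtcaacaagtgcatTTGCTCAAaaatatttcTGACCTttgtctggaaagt
Hgd promoter (chr16:37579795-37579875): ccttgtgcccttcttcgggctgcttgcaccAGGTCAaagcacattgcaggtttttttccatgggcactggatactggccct
Mup11 promoter (chr4:60663135-60663215): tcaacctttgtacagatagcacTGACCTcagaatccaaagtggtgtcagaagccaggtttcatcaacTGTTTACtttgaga
Mup22 promoter (chr4:60822239-60822319): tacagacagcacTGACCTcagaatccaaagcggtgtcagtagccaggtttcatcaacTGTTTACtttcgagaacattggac
Skor1 upstream (chr9:63185417-63185497): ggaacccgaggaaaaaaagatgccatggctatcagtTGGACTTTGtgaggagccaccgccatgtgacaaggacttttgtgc
Ppp2r5a upstream (chr1:191413826-191413906): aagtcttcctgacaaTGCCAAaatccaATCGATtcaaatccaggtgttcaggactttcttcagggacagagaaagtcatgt
Ghr upstream (chr15:3584463-3584543): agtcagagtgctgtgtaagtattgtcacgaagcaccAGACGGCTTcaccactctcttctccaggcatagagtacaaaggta
Ccdc34 upstream (chr2:109986235-109986315): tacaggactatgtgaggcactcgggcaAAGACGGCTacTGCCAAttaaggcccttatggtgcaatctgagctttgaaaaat

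The Mup11 and Mup22 windows both carry AGGTCA and TGTTTAC. The command given for the peak caller sets a minimum mapping quality, so reads that fit such copies equally well may have been dropped. The effect of this filter was not tested. The Skor1 window holds the HNF4A-type letters at the summit itself, and the Ghr window holds the PROX1 core at the summit.

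Peaks were short and numerous. The median width was 504 bp (interquartile range 345 to 791), and 8036 peaks (16.0%) spanned 1000 bp or more. Together they covered 33.4 Mb, 1.26% of the sequenced genome. The summit −log10 p had a median of 12.2 and an interquartile range of 10.1 to 15.1. It reached 20 in 2505 peaks and 30 in 16. The area of a peak, the caller's summed significance, was more uneven: the 10% of peaks with the largest area held 38.0% of the total. Summits lay in repeats (at least 50% of the DNA within 50 bp soft-masked) in 6.49% of peaks, against 32.4% of 264741 windows laid every 10000 bp over the genome. The windows were not filtered by how well reads map to them, while the reads behind the peaks were. These shares are therefore not strictly comparable. The median GC content around summits was 48.5%, against 41.6% in these windows.

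Most sites lay away from promoters. At most 1000 bp separated the summit from an annotated transcription start site (TSS) in 10217 peaks (20.4%, 20.0 to 20.7). Introns outside promoters held 24107 peaks (48.1%) and intergenic DNA 13690 (27.3%). Coding exons held 529, untranslated regions 771 and noncoding exons 845. The median distance to the nearest TSS of a protein-coding transcript was 12778 bp, and 17329 peaks (34.5%) lay 10000 to 50000 bp from it. Promoter peaks were not narrower, with a median of 537 bp against 499 bp in introns and 485 bp in intergenic DNA. Their median −log10 p was lower, 11.1 against 12.4 and 12.6.

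Around protein-coding TSSs, 7253 summits lay within 1000 bp, and 60.7% of them were upstream. Within 100 bp of the start lay 31.5% of these summits and within 250 bp 54.8%. The bin from −100 bp to the TSS held 1430 summits, the bin just downstream 852, and the next bin, from 100 to 200 bp, fell to 254. From there the counts stayed between 173 and 261 per bin up to 1000 bp downstream.

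**Figure D1:**
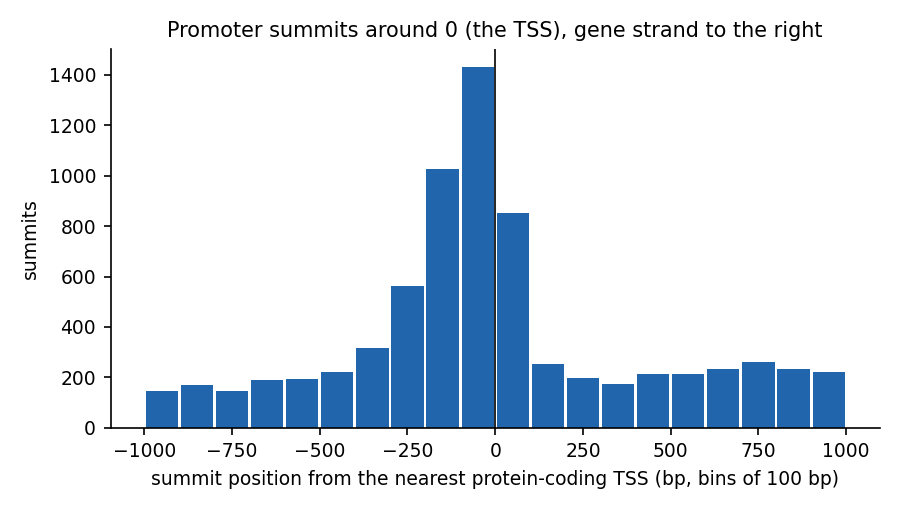
Number of summits by position relative to the nearest protein-coding TSS, in bins of 100 bp, upstream to the left. The bin ending at the TSS is the highest with 1430 summits, and the bins from 100 bp downstream hold at most 261.

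Of the strongest peaks, several lay in a small number of loci. The top peak (chr17:39843040-39846373, −log10 p 61.7) and the peaks of rank 11 (31) and 16 (30.5) lay within the same stretch of noncoding exons of chromosome 17, at Gm26917, AY036118 and the rRNA gene CT010467.1, a sequence present in many copies, so the place its reads came from is uncertain. The peak of rank 3 lay in an intron of Sfi1 on chromosome 11 and was only 311 bp wide (−log10 p 38.3). No list of problem regions was applied to these peaks, so whether the chromosome 17 and Sfi1 peaks are sites of PROX1 was not tested. A second locus lay on chromosome 1. An intron of Trpm8, a cold-sensing ion channel, held rank 2 (44.3). The peak of 3192 bp at the start of Hjurp, a chaperone that loads the centromeric histone, held rank 4 (34.7). Its summit lay 28 bp upstream of Hjurp, the nearest protein-coding start, and directly on the annotated start of a Trpm8 transcript. In the same region, rank 6 (34.6) fell in an intron shared by the Ugt1a genes, whose enzymes attach glucuronic acid to bilirubin and drugs, 1856 bp into Ugt1a1.

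The other peaks in the first 15 each lay at a separate locus. Nr0b2, which encodes SHP, a nuclear receptor without a DNA-binding domain that represses bile acid synthesis, had a peak of 1912 bp with the summit 336 bp upstream of its start (34.7). A peak 148894 bp upstream of Nr2f2, another nuclear receptor, reached 33.0, and a second one 157490 bp upstream reached 27.5. Nuak2, an AMPK-related kinase, held an intronic peak of 4582 bp (32.9). A peak of 5944 bp, whose nearest protein-coding start was that of Lpp, reached 32.0, and one in an intron of Prkce, a protein kinase C gene, reached 31.1. The remaining ones lay 22937 bp upstream of the carboxylesterase gene Ces1e (30.7), at Gpt, the alanine aminotransferase that feeds gluconeogenesis (30.7), 2946 bp upstream of Saa1, an acute phase protein (30.7), and 23965 bp downstream of the start of Ndufb3 (30.7).

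Taking genes rather than peaks, 5818 of 21924 protein-coding genes (26.5%, 26.0 to 27.1) carried a promoter peak, that is, a summit at most 1000 bp from the start of one of their protein-coding transcripts. Of these, 1550 had more than 1 such peak. The 15 genes with the strongest promoter peak included secreted proteins, enzymes and carriers. After Hjurp, Nr0b2 and Gpt followed Fgb, the fibrinogen beta chain (29.5, in a peak of 6148 bp), and Ttr, the thyroid hormone carrier transthyretin (28.8). Slc25a42, a mitochondrial carrier of coenzyme A, reached 28.0, the pheromone carrier gene Mup11 27.1 and Pctp, a phosphatidylcholine transfer protein, 26.9. D630039A03Rik had 26.5, and Zfyve1, a protein of the endoplasmic reticulum and lipid droplets, 26.3. Fgf1, a growth factor, had 26.3, and Cyp17a1, a steroid hydroxylase, 26.1. Tmc7 had 26.0, Mup22 25.9 and Gjb1, the gap junction protein connexin 32 of hepatocytes, 25.8.

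To describe which functions the promoter peaks cover, 15 lists of genes of liver function were counted. These lists, and those of other cell fates below, were chosen with earlier results of these data known, so their shares are descriptive. Of their 244 genes, 212 (86.9%, 82.1 to 90.6) had a promoter peak, against 26.5% of all protein-coding genes. The median of the strongest promoter −log10 p was 15.1 in the bound genes of these lists and 11.1 over all bound genes, and 134 of the 212 belonged to the highest 25% of bound genes. The median distance from a TSS to the nearest summit was 154 bp for these genes (interquartile range 60.8 to 484) and 19534 bp over the 21829 genes with an annotated protein-coding transcript on these chromosomes. Every list stood above the share of all genes, with its interval entirely above it.

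**Figure D2:**
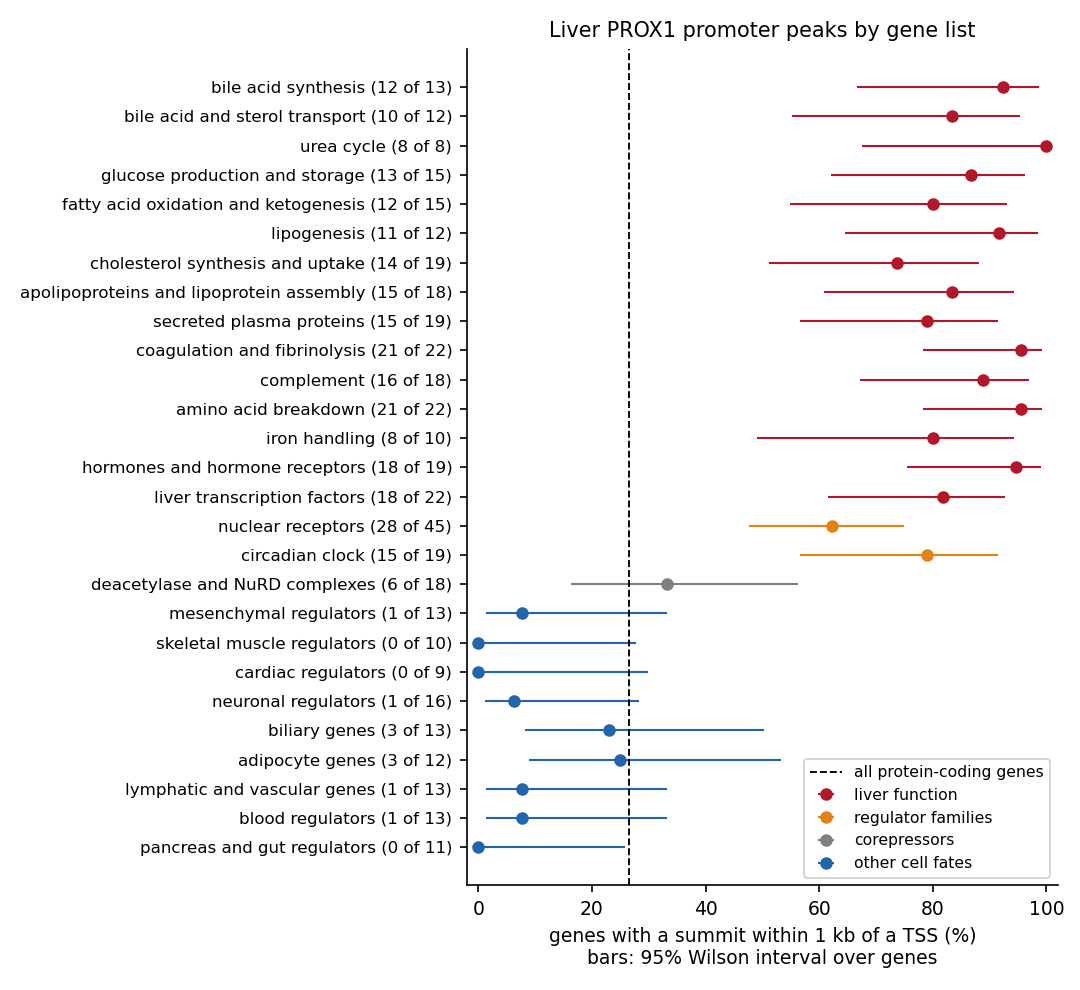
Share of each gene list that had a promoter peak, with 95% Wilson intervals over genes and the share of all protein-coding genes (26.5%) as a dashed line. All 15 liver lists lie between 73.7% and 100%, and the 9 lists of other cell fates lie at or under 25%. The lists were chosen with earlier results of these data known.

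Bile acid genes were almost completely covered. Of 13 genes of bile acid synthesis, 12 had a promoter peak. The strongest lay at Acox2 (22.0) and Amacr (20.3), which shorten and rearrange the side chain in peroxisomes, followed by Slc27a5 (19.6) and Baat (19.1), which activate bile acids and join them to amino acids. Cyp7a1, the rate-limiting enzyme of the classic pathway, had its peak 85 bp upstream of the start (18.3). Cyp7b1 was the exception, with no promoter peak but 13 peaks in the gene and the 10000 bp on each side of it. Among transporters, 10 of 12 were bound. Slco1a1 (18.9), Slc10a1 (17.9), Slco1b2 (16.7) and Abcc2 (16.3) led, which take up bile acids and organic anions or export them into bile. The heteromeric exporter genes Slc51a and Slc51b, used mainly in the intestine, had no promoter peak, with 0 and 1 peaks in their windows.

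Genes that handle nitrogen and amino acids followed the same pattern. All 8 urea cycle genes had a promoter peak, from Asl (17.7), Slc25a15 (17.7), Otc (17.1) and Ass1 (16.4) down to Cps1 (12.8), the entry enzyme. Of 22 genes of amino acid breakdown, 21 were bound, led by Hgd, of tyrosine breakdown (21.7), Mat1a, which makes S-adenosylmethionine (21.4), Cbs, of cysteine synthesis (20.8), and Kmo, of tryptophan breakdown (19.9). Bhmt was the member without a promoter peak, with 9 peaks in its window.

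In glucose metabolism, 13 of 15 genes were bound. After Gpt came G6pc, the last step of glucose release (24.3), Ppp1r3b, which directs glycogen synthesis (21.4), and Pcx, pyruvate carboxylase (20.1), which had 31 peaks in its window. Gckr, the inhibitor of glucokinase, had no peak at all in its window, and Ppp1r3g had 2, none at the promoter. Of 15 genes of fatty acid oxidation and ketogenesis, 12 were bound, with Acaa1b (20.2), Acadm (20.0) and Bdh1 (18.6) among the strongest. Cpt2 and Acaa2 were among those without a promoter peak and had 4 and 10 peaks in their windows. Of 12 genes of lipogenesis, 11 were bound, led by Gpam, the first acyltransferase of triglyceride synthesis (19.4), the elongase Elovl6 (18.5), the desaturase Scd1 (18.3) and Pnpla3 (18.2). Fasn, fatty acid synthase, had 6 peaks in its window and none at the promoter.

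Cholesterol genes formed the liver list with the lowest share and the lowest strength. Of 19 genes, 14 (73.7%, 51.2 to 88.2) were bound, with a median −log10 p of 10.7, below the 11.1 of all bound genes. Insig2 (14.0), Scarb1 (13.3) and Fdps (12.3) were among the highest, and only 2 of the bound genes lay in the highest 25%. Mvk, Pmvk and Lss, enzymes of cholesterol synthesis, were among those without a promoter peak, with 2, 0 and 0 peaks in their windows. The apolipoprotein list, by contrast, had 15 of 18 genes bound with a median of 16.1. Apoc3, an inhibitor of triglyceride clearance (24.9), hepatic lipase Lipc (21.9), Apof (20.4) and Apoa1, the main protein of high density lipoprotein (18.2), led, and Apoc1, Apom and Pltp were without a promoter peak.

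Secreted products of the hepatocyte were widely bound. Of 19 plasma protein genes, 15 had a promoter peak, led by Ttr, Fetub (22.0), Hp, which binds free haemoglobin (17.5), and the copper carrier Cp (17.5). Alb had one at 14.0. Gc, Itih4, Serpina6 and Fgl1 had none at the promoter and 16, 5, 5 and 6 peaks in their windows. In coagulation, 21 of 22 genes were bound, with Fgb, F11 (20.0), Fga (19.8) and F9 (19.3) at the top and F5 as the exception. In complement, 16 of 18 were bound, with C6 (19.4), Cfi (18.9), C4bp (18.5) and C3 (18.4) at the top, and Masp1 and Mbl1 had 8 and 7 peaks elsewhere in their windows. Of 10 iron genes, 8 were bound, led by the exporter Slc40a1 (19.6), Slc39a14 (16.4), Tfr2 (14.9) and Tmprss6 (13.8). Hamp, which encodes hepcidin, and its regulator Hfe2 had 8 and 3 peaks in their windows and none at the promoter.

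Of 19 genes of hormones and hormone receptors, 18 were bound. Inhbc, an activin chain (21.4), Met, the receptor for hepatocyte growth factor (18.2), and Igfals (18.1) were among the strongest. Ghr and Insr, the receptors for growth hormone and insulin, each had 34 peaks in their windows, and Klb, the coreceptor for FGF21, had 10 peaks without one at the promoter.

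Regulators of liver transcription were bound themselves. Of 22 factors, 18 had a promoter peak, led by Klf15 (20.1), Foxa2 (17.7), Bcl6 (16.1) and Tbx3 (15.7). Hnf4a had 25 peaks in its window, 7 of them within 1000 bp of a TSS of any transcript, and Prox1 had 26. Nfia, Nfib and Nr5a2 had 57, 44 and 35. Cebpb, Onecut2, Atf5 and Creb3l3 had no promoter peak but 6, 14, 5 and 4 peaks in their windows. Across all 45 nuclear receptor genes, 28 (62.2%, 47.6 to 74.9) were bound, with Nr0b2 (34.7), Pparg (23.6), the bile acid receptor gene Nr1h4 (20.8) and Nr6a1 (20.6) in the lead. Of the 17 unbound receptors, 10 had no peak in their window, among them Vdr, Pgr, Esr2, Nr2e1 and Nr0b1. Of 19 clock genes, 15 were bound. Clock reached 21.7, Hlf 18.9, Tef 18.4 and Nr1d1 15, and Per3, Nfil3, Ciart and Bhlhe41 had no promoter peak. Among 18 genes of deacetylase and NuRD complexes, the partners through which PROX1 is known to repress, 6 (33.3%, 16.3 to 56.3) were bound, a share near that of all genes.

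The 9 lists of other cell fates lay at the other end. Of 109 genes, 10 (9.17%, 5.06 to 16.1) had a promoter peak, and 64 had no peak in their window. The median distance from a TSS to the nearest summit was 41750 bp. None of 10 skeletal muscle, 9 cardiac and 11 pancreas and gut regulators was bound at the promoter. With such short lists, each interval reached at least 25.9%, and the interval of the pancreas and gut list ended just under the share of all genes, so only that list and the 109 genes together stood apart from it. In muscle, Myod1, Myf5, Myf6, Myog, Mef2c and Eya1 had no peak within 10000 bp of the gene, and the nearest summit to Myod1 lay 190099 bp away. In heart, Nkx2-5 had 1 peak, 1251 bp from its start.

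The 10 exceptions were spread over 6 lists. Snai2, a regulator of mesenchymal transition, was bound 6 bp upstream of its start (15), and the glial and neuronal factor Olig1 at 478 bp (14.2). Of 13 biliary genes, Hes1 (11.8), Spp1 (11.5) and Notch2 (10.7) were bound, while Krt19, Krt7, Epcam, Cftr and Jag1 had no peak in their windows and Sox9 had 3. Notch2 had 31 peaks in its window. In the adipocyte list, Pparg (23.6), Cidec, a lipid droplet protein (13.9), and Ebf2 (8.97) were bound, of 12. Of 13 lymphatic and vascular genes, Vegfc (11.4) was bound, and Flt4, Pdpn, Sox18, Kdr, Tek, Cdh5 and Tal1 had no peak. Of 13 blood regulators, Pax5 (9.17) was bound.

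Within gene families matched by symbol, coverage ranged from none to most members, against 26.5% of all protein-coding genes. Glutathione S-transferase genes had a promoter peak in 18 of 21 cases (85.7%), carboxylesterases in 14 of 19 (73.7%), major urinary proteins in 16 of 22 (72.7%), UDP-glucuronosyltransferases in 14 of 22 (63.6%) and cytochrome P450 genes in 52 of 100 (52.0%). These families contain near-identical copies, where the minimum mapping quality may have removed reads, and the effect on their counts was not tested. ABC transporters also had 52.0% (26 of 50). Closer to the share of all genes lay proteasome genes with 16 of 40, sulfotransferases with 8 of 21 (38.1%), respiratory complex I genes with 17 of 46 (37.0%), solute carriers with 126 of 371 (34.0%), cytosolic ribosomal protein genes with 34 of 102 (33.3%), serpins with 20 of 61 (32.8%) and Zfp zinc finger genes with 99 of 394 (25.1%). Of these, the interval of the solute carriers (29.3 to 38.9%) lay above the share of all genes, and those of serpins (22.3 to 45.3%) and ribosomal protein genes (24.9 to 42.9%) included it. The median −log10 p was 10.2 in the ribosomal genes and 9.53 in proteasome genes, against 17.6 in the carboxylesterases and 18.2 in the major urinary proteins. Of 39 Hox genes none had a peak, also not within 10000 bp. Olfactory receptors had 6 of 1134 (0.529%), vomeronasal receptors 1 of 330 (0.303%), Wnt ligands 1 of 19 and collagens 6 of 45 (13.3%).

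Counted over the gene body and 10000 bp on each side, 11074 of 21924 protein-coding genes (50.5%) had a peak. The share was 240 of 244 (98.4%, 95.9 to 99.4) in the liver lists, with a median of 7 peaks per gene against 1.00 over all genes, and 45 of 109 (41.3%, 32.5 to 50.7) in the lists of other fates. Of the 32 liver genes without a promoter peak, 28 had peaks elsewhere in this window. Windows with 10 or more peaks were found for 74 of the 244 liver genes (30.3%) and 1159 genes in all (5.29%). The 10 genes with the most peaks were long, so that length has to be set beside the counts. Gm20388, a read-through model of 4435 kb, had 277, and Fgfr2, annotated over 2961 kb, had 88. Rora, a clock-related nuclear receptor, had 62, Arhgap26 and the polarity gene Pard3 59 each, Nfia 57, Zmiz1 56, Rbm47 55, Gm37240 54 and Zbtb20 52. Across genes, Spearman's rho between length and count was 0.321 (n = 21924 genes, which are not independent replicates).

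Sites were strongly grouped along the chromosomes. The median distance from a summit to the next one was 2323 bp, and 80.3% had a neighbour within 10000 bp. Chaining summits at gaps of at most 10000 bp gave 708 clusters of 10 or more peaks. They held 10086 peaks (20.1%) in 27.6 Mb, with a median of 13 peaks over 36.1 kb, and 80 of them held 20 or more. The count depends on the gap, with 262 clusters at 5000 bp and 1199 at 20000 bp, and it fell to 122 with the stronger 50% of peaks and to 307 with peaks of an area of at least 1000. Peaks in clusters had a median −log10 p of 12.8, against 12.0 outside. Promoter peaks made up 17.8% of the clustered peaks and 21% of the others.

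The largest cluster covered Rbm47, an RNA-binding protein gene, with 52 peaks over 129 kb. Zmiz1, a transcriptional coregulator, followed with 50 peaks over 115 kb and Mtss1, a membrane-bending protein, with 46 over 120 kb. Ppara, the nuclear receptor that drives fatty acid oxidation, lay in a cluster of 41 peaks over 85.9 kb. Shb, a signalling adaptor, had 35 with a strongest peak of 27.4, and Abca1, which loads cholesterol onto apolipoprotein A-I, had 35. Insr and Pard3 had 33 each. A cluster of 32 peaks near Rab11fip4 overlapped no protein-coding gene, and one of 32 joined Dgat2 and Mogat2, both enzymes of triglyceride synthesis. Of all clusters, 49 overlapped no protein-coding gene. Of the 244 liver genes, 84 (34.4%, 28.7 to 40.6) lay in a cluster, against 945 of 21924 genes (4.31%, 4.05 to 4.59) and 3 of 109 genes of other fates (2.75%, 0.940 to 7.78).

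In such genes most peaks lay away from promoters, which held 8 of the 55 peaks at Rbm47, 6 of 56 at Zmiz1, 5 of 32 at Ppara and 3 of 34 at Insr. Of the 55 peaks in the Rbm47 window, 54 lay within the gene and the strongest (24.3) lay 129 kb from its 5′ end. Insr had 31 of its 34 peaks within the gene, and the strongest (24.4) lay 38.7 kb in. In Ppara, 28 of 32 peaks lay within the gene, with the strongest (22.7) at 36.9 kb, where it lay within 1000 bp of an internal TSS and so counts as a promoter peak. Hnf4a had its strongest peak (22.1) 52.6 kb from the outermost 5′ end of the gene, but 9301 bp from the nearest protein-coding TSS. The 25 Hnf4a peaks ran from a −log10 p of 6.78 to 22.1 with a median of 10.7. Slc10a1, the bile acid importer, was a compact case, with 18 peaks in its window, of which 8 lay in the gene of 15.5 kb, 3 upstream and 7 downstream.

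**Figure D3:**
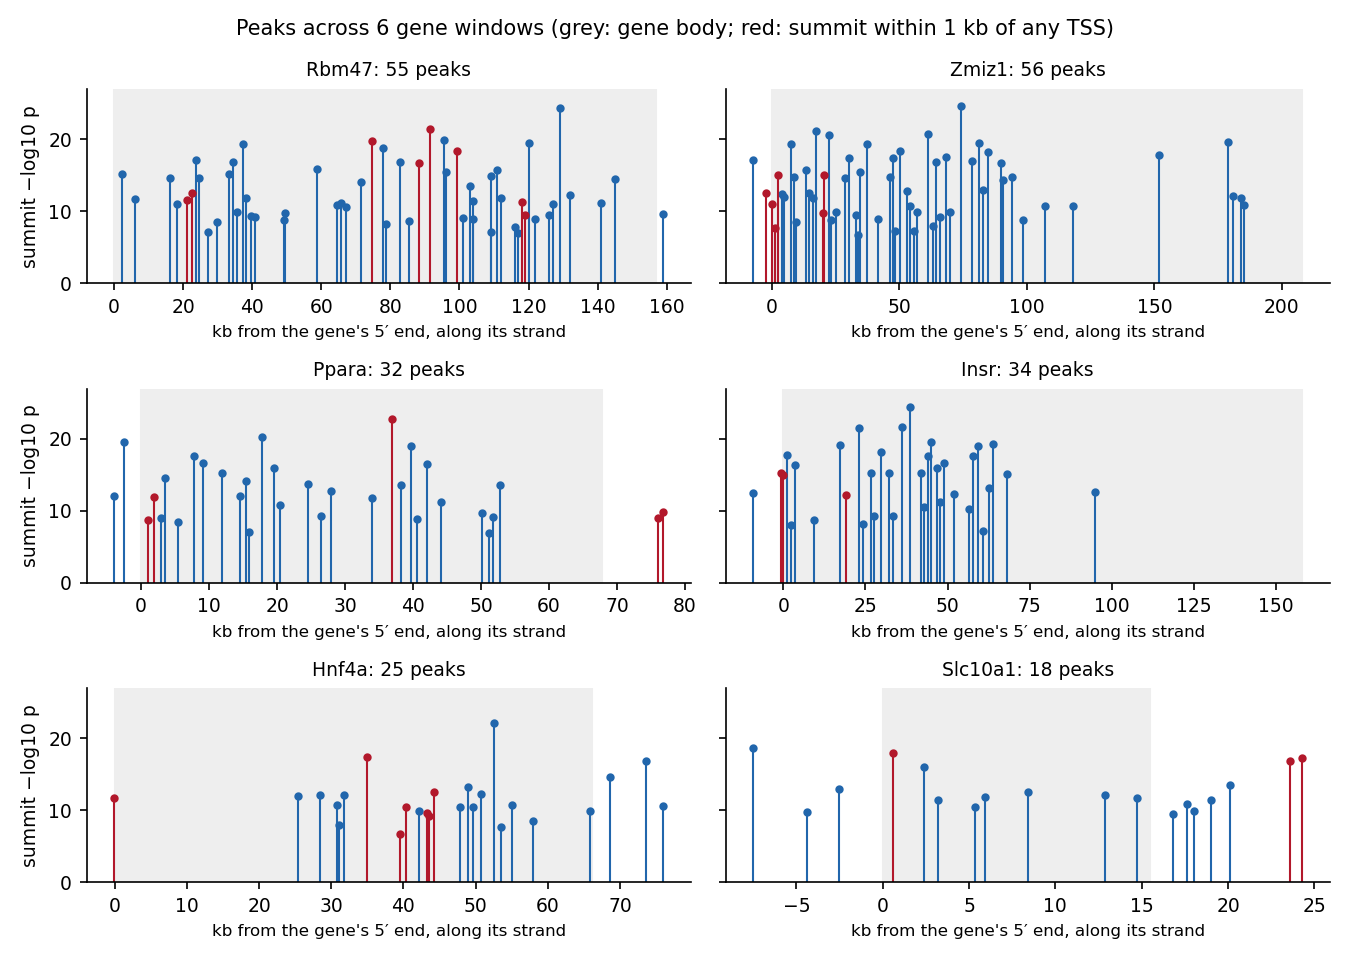
Summit −log10 p of every peak against its distance from the 5′ end of the gene, along the gene's strand, for 6 genes with 10000 bp on each side (grey band: gene body; red: summit within 1000 bp of any TSS). In all panels but that of Slc10a1 most peaks lie within the gene body, unevenly spread: the Hnf4a body holds none before 25.4 kb. In the panels for Rbm47, Insr and Hnf4a the highest peak lies 129, 38.7 and 52.6 kb from the 5′ end. The highest Hnf4a peak lies 9301 bp from the nearest protein-coding TSS.

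Per 10 kb of gene window, the densest genes were mostly short. Tgoln1, with its neighbour Retsat, reached 6.65 and 5.34 peaks per 10 kb, Apoc4 5.56, H6pd, a microsomal glucose-6-phosphate dehydrogenase, 5.45 and Slc10a1 5.07, against 0.189 over the genome. The fibrinogen locus (chr3:82997724-83059863) held 25 peaks, 4.02 per 10 kb. The Apoe to Apoc2 locus held 19 (3.99 per 10 kb), though none exceeded 19.4. The Apoa1 to Apoa5 locus held 16 (2.53), with the strongest (25.8) 4381 bp upstream of Apoa1. The Nr0b2 locus held 10 (4.32), Hnf4a 25 (2.90), Hamp 13 (2.39) and the Ugt1a locus 42 (2.29).

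Larger loci also held many peaks. The Serpina cluster on chromosome 12 held 125 peaks over 820 kb (1.53 per 10 kb), the Ces1 locus 57 (1.69), the fetuin and kininogen locus 40 (1.90), Ugt2b 33 (1.35) and the albumin family 19 (1.69). In the last, the strongest peak (18.5) lay 4845 bp upstream of Afp. The Cyp2c and Cyp3a loci were sparser, with 32 peaks over 938 kb (0.341) and 30 over 593 kb (0.506), and the major urinary protein locus held 97 over 2214 kb (0.438). Igf1 held 17 (1.72), with the strongest (23.9) in an intron 24475 bp from a start, Itih 15 (1.95), C8a to C8b 17 (1.31), Slco1 22 (0.652), Cyp4a 13 (0.511), Cps1 9 (0.702), Abcg5 to Abcg8 7 (1.13) and Nr1d1 to Thra 7 (1.28). The 4 Hox clusters, the beta globin locus, Myod1 and Neurog2 held 0 peaks each.

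Sequence at the summits was compared with DNA of the same length 200 bp away on both sides, and with the windows laid over the genome. The motif with the highest ratio was the HNF4A type, CAAAGTCCA, found within 50 bp of 713 summits (1.42%, 1.32 to 1.53) against 0.169% of flanks, a ratio of 8.39 (7.10 to 9.92), and 0.132% of genome windows. The AGGTCA element, the core shared by many nuclear receptors, was found at 8265 summits (16.5%) against 6.59% and 5.55%, a ratio of 2.50 to the flanks. Its extended form CAAGGTCA, of the NR5A2 type, had a ratio of 2.77 and the direct repeat AGGTCAAAG one of 4.51. These motifs overlap in their letters and their counts are not independent.

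Motifs of other hepatocyte factors followed. ATCGAT, of the ONECUT and CUX type, had a ratio of 3.33 at 547 summits, and ATCAAT 2.10 at 3854. The FOXA types TGTTTAC and TGTTTGC had 2.24 and 2.22, the NFI types CTTGGC and TTGGCA 2.15 and 2.09, and TTGCNNAA, of the C/EBP type, 2.08. A set of 9 motifs was also counted together: the HNF4A type, the AGGTCA element, both ONECUT and both FOXA types, the C/EBP type, the NFI type TTGGCA, and GTTAATNAT. For this set only the left flank, on the side of lower coordinates, was counted. At least 1 of the 9 motifs was found at 45.2% of summits, against 22.0% of left flanks and 22.2% of genome windows. At least 2 were found at 10.4%, against 2.69% and 2.64%.

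The core of the PROX1 motif, AAGNCGNCT, was rare. It was found at 239 summits (0.476%, 0.420 to 0.541) against 0.304% of flanks, a ratio of 1.57 (1.32 to 1.86), and 0.159% of genome windows. At promoters the ratio was 1.98 and elsewhere 1.35. The shorter AAGACG had 1.11. Among the other motifs, AAGATGGC (YY1 type) had a ratio of 1.01 and GTTGCNNNG (RFX type) of 1.17. The CTCF type AGGGGGC had 1.14 to the flanks and 1.94 to the genome windows. The E-box CACGTG had 1.14. The NF-Y type CCAATC had 1.20. The AP-1 type TGANTCA had 1.33. The GC box GGGCGG had 1.46 to the flanks and 5.19 to the genome windows, with a match at 16.3% of promoter summits and 2.12% of the others. The GATA type AGATAAG had 1.54. CCGGAAGT (ETS type) and GCGCATGCG (NRF1 type) had 1.64 and 2.80 to the flanks, and 4.64 and 10.3 to the genome windows, on 146 and 70 summits, mostly at promoters.

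Motif matches were centred on the summits. Within 10 bp of the summit, HNF4A-type matches were 10.6 times as dense per base as beyond 300 bp, CAAGGTCA 4.23 times, ATCGAT 4.16, AGGTCA 3.44, CTTGGC 3.18, TTGCNNAA 2.30, TGTTTAC 2.13 and the PROX1 core 1.81. From 160 to 200 bp on the side of higher coordinates, the HNF4A-type profile was back at 1.03 to 1.15 times the level beyond 300 bp. On the side of lower coordinates it was at 1.39 from −180 to −160 bp and 1.09 from −200 to −180 bp.

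**Figure D4:**
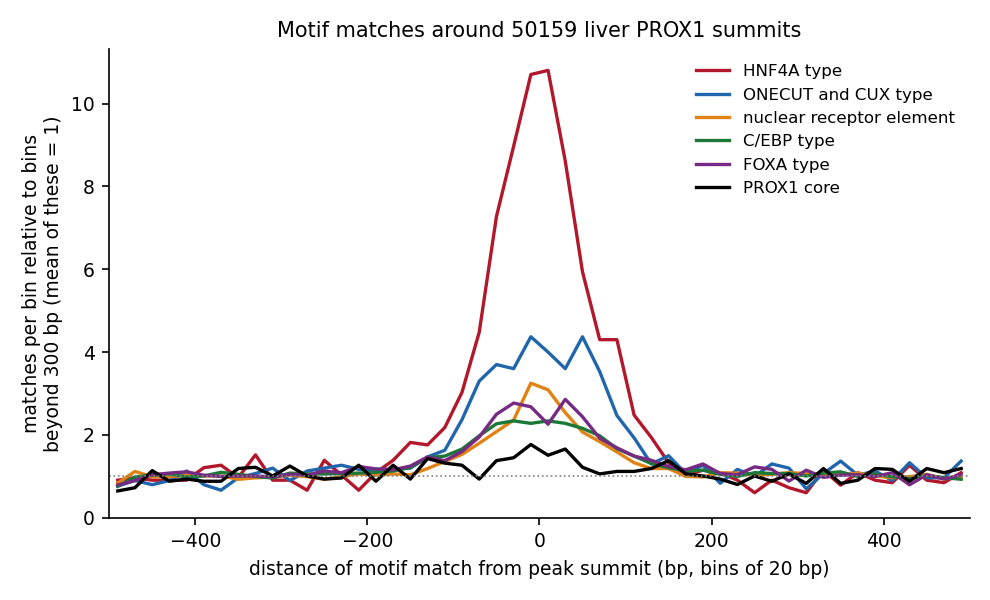
Density of motif matches around all summits in bins of 20 bp, divided by the mean of the bins beyond 300 bp. The HNF4A type rises above 10 at the summit, the ONECUT and CUX type and the nuclear receptor element to between 3 and 5, and the PROX1 core stays under 2.

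The same comparison was made for 8-mers, with no preset motif. Of 8154 8-mers found at 200 summits or more, 395 were at least 2 times as frequent at summits as in the flanks. The highest was CAAAGTCC, at 1318 summits (2.63% against 0.465%, ratio 5.66). AAAGTCCA (5.09), CAAAGGTC (4.71), AAAGGTCA (4.68), CAAAGTTC (4.32), CTTTGGAC (3.98) and CTTTGACC (3.91) resemble direct repeats of nuclear receptor elements. GATCAATA (4.44) and AGATCAAT (3.75) held the ONECUT letters, and TTGCACAA (3.82) matches the C/EBP type TTGCNNAA. None of the 60 highest contained ATCGAT in full. The 547 summits with ATCGAT divide over many 8-mers, and only 8-mers at 200 summits or more were ranked. This absence therefore carries no information on the enrichment of ATCGAT.

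Away from promoters, 30 of the 36 pairs among these 9 motifs shared a summit less often than the product of their separate shares. Among the 6 others were the C/EBP type with TGTTTGC (1.65 times the product) and with the NFI type (1.61), the ATCGAT and ATCAAT pair (1.46), ATCGAT with the HNF4A type (1.43, on 10 summits) and TGTTTGC with the HNF4A type (1.17). Several of these pairs can overlap in their letters. The AGGTCA element shared summits with the other 8 motifs 0.60 to 0.874 times as often as the product.

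Finally, properties were followed along the rank of the list, in 10 equal groups by summit −log10 p. From the strongest group to the weakest, the median width fell from 1234 to 400 bp, with 352 bp in the ninth. The promoter share rose from 14.3% to 35.8% and the intergenic share fell from 32.1% to 18%. The median distance to a protein-coding TSS fell from 15298 to 5006 bp. This trend depends on the measure of strength: ranked by peak area instead, a choice made after seeing the data, the promoter share was 19.5% in the strongest and 22.6% in the weakest group, a ratio of 1.16 where the ranking by −log10 p gave 2.50.

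Most motifs of hepatocyte factors were more frequent in the strongest group than in the weakest. AGGTCA was found at 18.2% of summits of the strongest group and 11.9% of the weakest, while its flanks moved from 7.35% to 6.05%. CAAAGTCCA fell from 1.75% to 0.618%, ATCGAT from 1.56% to 0.538%, TGTTTAC from 3.99% to 2.37% and TTGCNNAA from 10.6% to 6.96%. One of the 9, GTTAATNAT, differed little, with 0.738% and 0.638%. At least 1 of the 9 motifs was present at 51.3% and 33.9%. The GC box rose from 1.57% to 10.6%, together with the promoter share. The PROX1 core lay between 0.319% and 0.618% in all 10 groups. It was found at 0.459% of summits of the strongest group, with 0.219% in the flanks, and at 0.618% of the weakest, with 0.399% in the flanks.

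**Figure D5:**
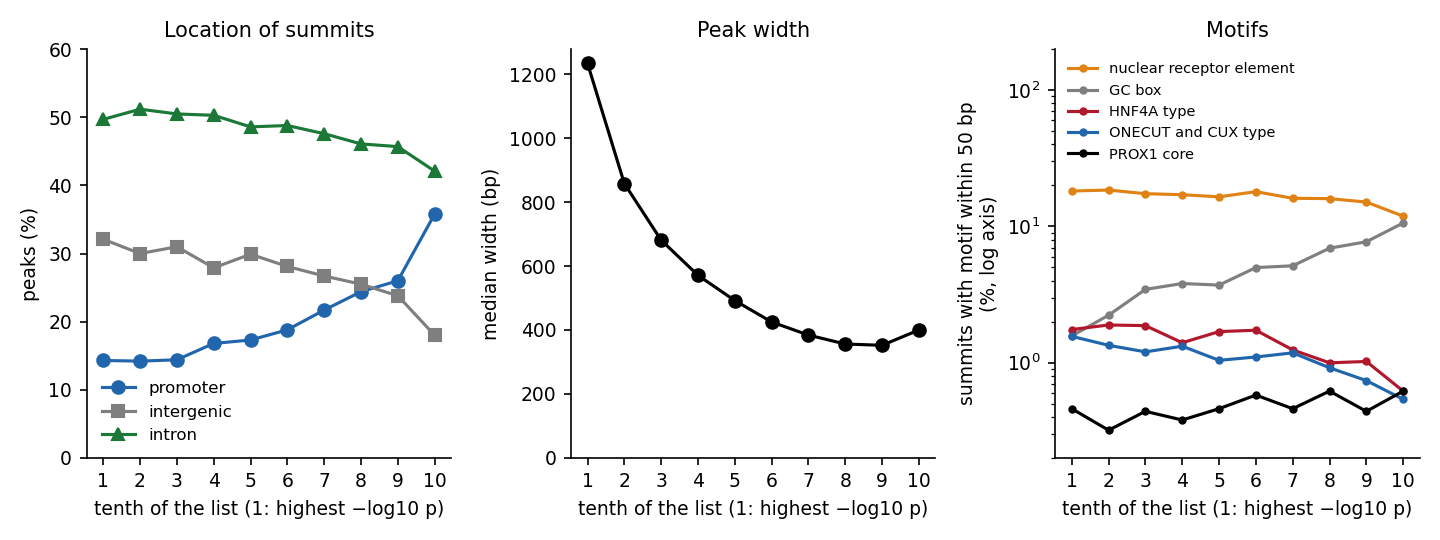
Location of summits (left), median peak width (middle) and share of summits with a motif within 50 bp (right, log axis) in 10 equal groups of the list, from the highest summit −log10 p (1) to the lowest (10). Promoter share rises from 14.3% to 35.8% and width falls from 1234 to 400 bp, while the PROX1 core stays between 0.319% and 0.618%.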

How the data were processed

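CUT&RUN peaks of 5 liver samples with the PROX1 antibody were analysed as 1 pooled list. According to the submitters' processing notes, reads were trimmed with Trim Galore 0.6.6, aligned with Bowtie2 2.4.2 to mm10 and called with Genrich 0.6.1. Replicates were pooled by the authors. The deposited score is capped at 1000 for 99.9% of peaks and was not used. The deposited signal sums significance along the peak and is called area here, with a lowest value of 500. The deposited −log10 p belongs to the summit, comes from the caller of the authors and ranked the list. The q-values were not used. None of these was normalized by the authors, and depth per sample is not given in the sources used here.

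Summits were placed on GRCm38, the assembly that mm10 names, with GENCODE M21 in Python 3.11.15 (numpy 2.4.6, pandas 2.3.3, statsmodels 0.14.6). Promoter peaks were those whose summit lay at most 1000 bp from the TSS of any transcript. Bound genes were protein-coding genes, counted by symbol, for which this held with protein-coding transcripts only. Gene windows added 10000 bp on each side. Motifs were searched on both strands within 50 bp of the summit, in windows of equal width centred 200 bp away, and in windows every 10000 bp of the genome. The letters searched are those named in the report. Shares carry 95% Wilson intervals, motif ratios carry 95% intervals from the counting error of matches on the log scale, and no test was run, since the list has no replicates. Scripts were tested on simulated positions and sequences with known answers. The members, gene lists, loci and motifs were chosen with earlier results of these data known. Of 2 list genes, Tf and Gm6484, the symbol was not found in the annotation. Genes were named by a rule: the 15 strongest peaks and promoter genes, the 10 largest clusters and gene counts, the 4 strongest members of each list with its unbound members, and each locus. Some items that this rule selects are not reported here. The second ranking by area, and the settings without masked summits or without genes over 1000 kb, were added after seeing the data. Gene families were described by counts alone.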

Additional observations from a re-analysis of the deposited data

How the results depend on the processing

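No paired analysis was possible because the list pools the samples, and for the same reason no replicate could be left out. Of 65 alternatives, 32 stayed within 1.5 times of a count or within the interval of a share or ratio and 33 moved. A change of direction could be recorded only for the motif ratios and the rank trend, and none occurred. Why results moved was not tested. Genes with a promoter peak fell to 2142 with the stronger 50% of peaks, 946 with the stronger 25% and 3825 with an area of at least 1000. Liver function genes fell from 212 to 106 with the stronger 25%. Alternative fate genes moved from 10 to 18 at a promoter window of 2000 bp, 4 with the stronger 50%, 1 with the stronger 25% and 6 at the outermost gene ends. Shares kept their order throughout: with the stronger 25%, 43.4% of liver function genes, 0.917% of alternative fate genes and 4.31% of all genes were bound. The promoter share was 14.3% at 500 bp, 29.7% at 2000 bp, 14.5% with protein-coding transcripts and 15.4% in the stronger 50%. Clusters numbered 262 at a gap of 5000 bp, 1199 at 20000 bp, 122 with the stronger 50%, 307 with an area of at least 1000 and 470 with summits under 1000 bp apart counted once. Genes with 10 or more peaks numbered 742 over gene bodies, 4138 with 50000 bp on each side and 338 with the stronger 50%. With 25 bp and 100 bp around the summit, the HNF4A-type ratio was 10.2 and 5.66 and the AGGTCA ratio 2.96 and 1.94. The AGGTCA ratio was 2.59 with flanks at 500 bp and also away from promoters, and 2.07 at promoters. The ATCGAT ratio was 2.90 with 100 bp, 3.85 in the stronger 50% and 2.56 at promoters. The PROX1 core ratio was 1.25 with 100 bp and 1.98 at promoters. The ratio of promoter shares between the weakest and the strongest group was 1.16 when ranked by area. Depth limits what can be said of genes without a peak, since the number of reads behind the list was not analysed here. The minimum mapping quality limits it further in repeats and in families or chromosomes with near-identical copies.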

Other observations

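The chromosomes differed in the density of peaks. Over all chromosomes there were 18.9 peaks per Mb, with 35.5 on chromosome 19 and 30.3 on chromosome 11, at 12.4 and 13.8 protein-coding genes per Mb. Chromosome 7 had the most genes per Mb (14.3) but 18.6 peaks per Mb and 1.31 peaks per gene, and chromosome 17, with 11.5 genes per Mb, had 20.3 peaks per Mb. The X chromosome had 730 peaks, 4.47 per Mb, at 5.80 genes per Mb, and 0.770 peaks per gene against 2.29 overall. Chromosome 3, with 6.42 genes per Mb, had 16.5 peaks per Mb. The Y chromosome had 2 peaks. The sex of the mice is not among the labels used here.

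Few microRNA hairpins had a peak near their annotated start. Of 2201 annotated microRNA genes, 158 (7.18%) had a summit within 1000 bp of the annotated start of the hairpin, against 26.5% of protein-coding genes with a promoter peak. These are unlike measures. The hairpin start need not be the start of the primary transcript, while protein-coding genes were counted at any of their protein-coding TSSs. Promoters of microRNAs were not examined. The highest −log10 p values lay at Mir1931 (25.5) and Mir31 (22.8). Mir122, the main microRNA of hepatocytes, had 18.6 and Mir148b 17.1. These genes were named after their values were seen.

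The widest peak spanned 9458 bp in intergenic DNA on chromosome 18, and its nearest protein-coding start was that of Nedd4l. It was followed by one of 9123 bp in Sdc4, a heparan sulfate proteoglycan, and one of 8241 bp in Slc25a25, a mitochondrial carrier. Of all peaks, 1494 (2.98%) spanned 2000 bp or more, and 38 spanned 5000 bp or more.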
